A study of Mus musculus with 6 samples.

Results

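The Gnas imprinted locus lies on mouse chromosome 2, and its methylation was read here from reduced representation bisulfite sequencing (RRBS) of pluripotent cells. A CpG entered the comparison when its reads, summed over the replicate libraries, numbered at least 10 in each of the 3 cell types, and 310 CpGs within a 70-kb region did so, of 1106981 CpGs compared in the whole genome. In the region, 368 CpGs had a read in some library, and 58 of them had too few reads in at least 1 cell type. All 368 are CG in the GRCm38 sequence, the assembly that the deposited mm10 positions refer to. The locus was chosen by its difference between the iPSC types, so the 4F-iPSC against C-iPSC contrast is given as a description. Its region levels were not tested. Single CpGs in this contrast were called with Fisher's exact test for description only, and no conclusion rests on them.

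The study compared DNA methylation in iPSCs made by different routes with that in mESCs. C-iPSCs were induced with small molecules, and 4F-iPSCs with retroviral Oct4, Sox2, Klf4 and c-Myc, both from OG2-MEFs, embryonic fibroblasts of mice bred from C57BL/6J, CBA/CaJ and 129S4/SvJaeJ. The mESCs are the E14 line. Each cell type gave 2 replicate libraries, 6 in all, and all are labelled male. The iPSCs were at passages 5 to 10 and the mESCs at passages 20 to 30, so passage and cell type cannot be told apart in comparisons with mESCs. All cells grew in serum-containing medium with 1000 U/ml LIF and the 2i inhibitors (3 μM CHIR99021 and 1 μM PD0325901), on feeder layers of MEFs that were removed before collection according to the sample labels, while the study's methods name gelatin-coated plates. No label shows that the replicates are separate cultures, so the spread between them may be technical.

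The libraries held 75077465 and 53694199 reads on CpGs in mESC replicates 1 and 2, 91533371 and 84792206 in C-iPSC replicates 1 and 2, and 96534037 and 94215636 in 4F-iPSC replicates 1 and 2. On the 310 CpGs of the locus the same libraries held 18177 and 13501, 22157 and 19416, and 22702 and 23230 reads. All 310 CpGs had reads in all 6 libraries, and 281 had at least 10 reads in each. The median of the summed reads per CpG was 141.5 in C-iPSCs, 87.5 in mESCs and 143.5 in 4F-iPSCs. A CpG's methylation level is the percentage of its reads that are methylated, and the level of a region is the mean over its CpGs. Reads were not assigned to parental alleles, so a CpG methylated on the same allele in all cells and a CpG methylated on both alleles in some of the cells cannot be told apart.

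As background, the Gnas locus produces several transcripts from separate starts, which splice onto shared downstream exons and are expressed from different parental alleles. The Gnasxl and Nespas region and the exon 1A region acquire methylation in the oocyte and keep it on the maternal allele, whereas the Nesp region is methylated on the paternal allele, a mark acquired after fertilisation. Gnas exon 1, the start of the transcript for the stimulatory G protein alpha subunit, lies in a CpG island without allelic methylation. Germline marks of this kind are copied through cell division and normally escape both the demethylation of the early embryo and later de novo methylation.

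In the GENCODE annotation the Nesp start is at position 174284320 of chromosome 2 (3 transcripts), the Gnasxl start at 174297859 (6 transcripts), the exon 1A start at 174327768 (1 transcript) and the first start of Gnas exon 1 at 174330006 (4 transcripts), all on the plus strand. The antisense transcript Nespas starts at 174295436 on the minus strand (2 transcripts). A further, short Nespas transcript starts at 174285435, inside the Nesp region. Each CpG was given to the nearest of these 5 starts when it lay within 2 kb of it. This gave 35 CpGs to Nesp, 1 to Nespas, 60 to Gnasxl, 38 to exon 1A and 122 to Gnas exon 1, and left 54 in the rest of the locus. RRBS reads short fragments between MspI sites, so coverage of the windows was partial. The compared CpGs were 28.8% of the 212 CpGs within 2 kb of the Gnasxl start, 47.7% of the 306 around Gnas exon 1, 21.1% of the 228 around exon 1A, 20.5% of the 171 around Nesp and 6.50% of the 123 around Nespas. CpGs of neighbouring windows are counted in each of these shares.

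The following fragments, each from an MspI site to the next, show the letters behind the levels and were selected with levels known. They are plus-strand GRCm38 sequence, 5′ to 3′, with the compared CpGs in capitals, and they lie outside annotated UTRs. For Nesp, exon 1A and Gnas exon 1 each is the nearest such fragment to the start with at least 3 compared CpGs. The first lies at chr2:174284176-174284272, 48 bp upstream of the Nesp start.
Nesp fragment: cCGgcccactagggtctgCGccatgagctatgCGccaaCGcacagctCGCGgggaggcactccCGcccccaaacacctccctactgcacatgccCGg
The Gnasxl fragments lie in coding sequence of the Gnasxl exons. The first holds the most-read CpG of that region (chr2:174299081-174299144), the second holds the letters TGCCGC at 2 places, once on each strand (chr2:174299354-174299430), and the third holds all 9 CpGs of the locus that were strongly lower in C-iPSCs than in mESCs (chr2:174299946-174300053).
Gnasxl most-read fragment: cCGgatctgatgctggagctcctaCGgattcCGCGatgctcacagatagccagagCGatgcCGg
Gnasxl TGCCGC fragment: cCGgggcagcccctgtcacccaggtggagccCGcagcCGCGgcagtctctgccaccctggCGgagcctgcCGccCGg
Gnasxl distal fragment: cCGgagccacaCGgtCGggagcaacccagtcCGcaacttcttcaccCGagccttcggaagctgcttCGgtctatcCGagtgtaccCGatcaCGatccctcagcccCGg
The exon 1A fragment lies upstream of its start in a Gnas intron (chr2:174326930-174326990), and the Gnas exon 1 fragment lies downstream of its start, also in an intron (chr2:174330467-174330526).
Exon 1A fragment: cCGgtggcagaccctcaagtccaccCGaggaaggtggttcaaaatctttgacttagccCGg
Gnas exon 1 fragment: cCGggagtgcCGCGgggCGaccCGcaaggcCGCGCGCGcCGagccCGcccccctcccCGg
At the CpGs inside these fragments, leaving out the MspI sites at the ends, the mean level of the distal Gnasxl fragment was 1.22% and 4.18% in C-iPSC replicates 1 and 2, 34.6% and 49.6% in mESC replicates 1 and 2, and 60.2% and 68.5% in 4F-iPSC replicates 1 and 2. The same 6 values of the Gnas exon 1 fragment were 0.442% and 0.480%, 0.286% and 0.596%, and 0.208% and 0.156%. The former fragment thus separated all 3 cell types, while the 10 inner CpGs of the latter were almost free of methylation in all 6 libraries.

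Over the whole locus the level was 7.05% and 8.46% in C-iPSC replicates 1 and 2, 14.4% in mESC replicate 2 with replicate 1 lower by 1.42 percentage points, and 22.8% and 25.5% in 4F-iPSC replicates 1 and 2. The cell types followed the order C-iPSCs, mESCs, 4F-iPSCs with no overlap between their libraries. The means were 7.75% ± 0.997 (SD, n = 2 libraries), 13.7% ± 1.00 (SD, n = 2) and 24.1% ± 1.92 (SD, n = 2). The level in C-iPSCs differed from that in mESCs by -5.96 percentage points and the level in 4F-iPSCs by 10.4 percentage points, both more than the spread between replicates. Each had a p of 0.33 in a two-sided exact permutation test, the smallest that 2 libraries against 2 allow, so this test cannot call any difference here. Across all compared CpGs of the genome with reads in all libraries the order was another, with means of 28.5% in C-iPSCs, 21.8% in mESCs and 33.8% in 4F-iPSCs. Of the 310 locus CpGs, 127 (41.0%) had the order C-iPSCs, mESCs, 4F-iPSCs, against 9.20% of the CpGs of the genome. The choice of the locus favours this order, which places C-iPSCs below 4F-iPSCs. The order mESCs, C-iPSCs, 4F-iPSCs was found at 59 locus CpGs and at 43.6% of those of the genome.

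**Figure D1:**
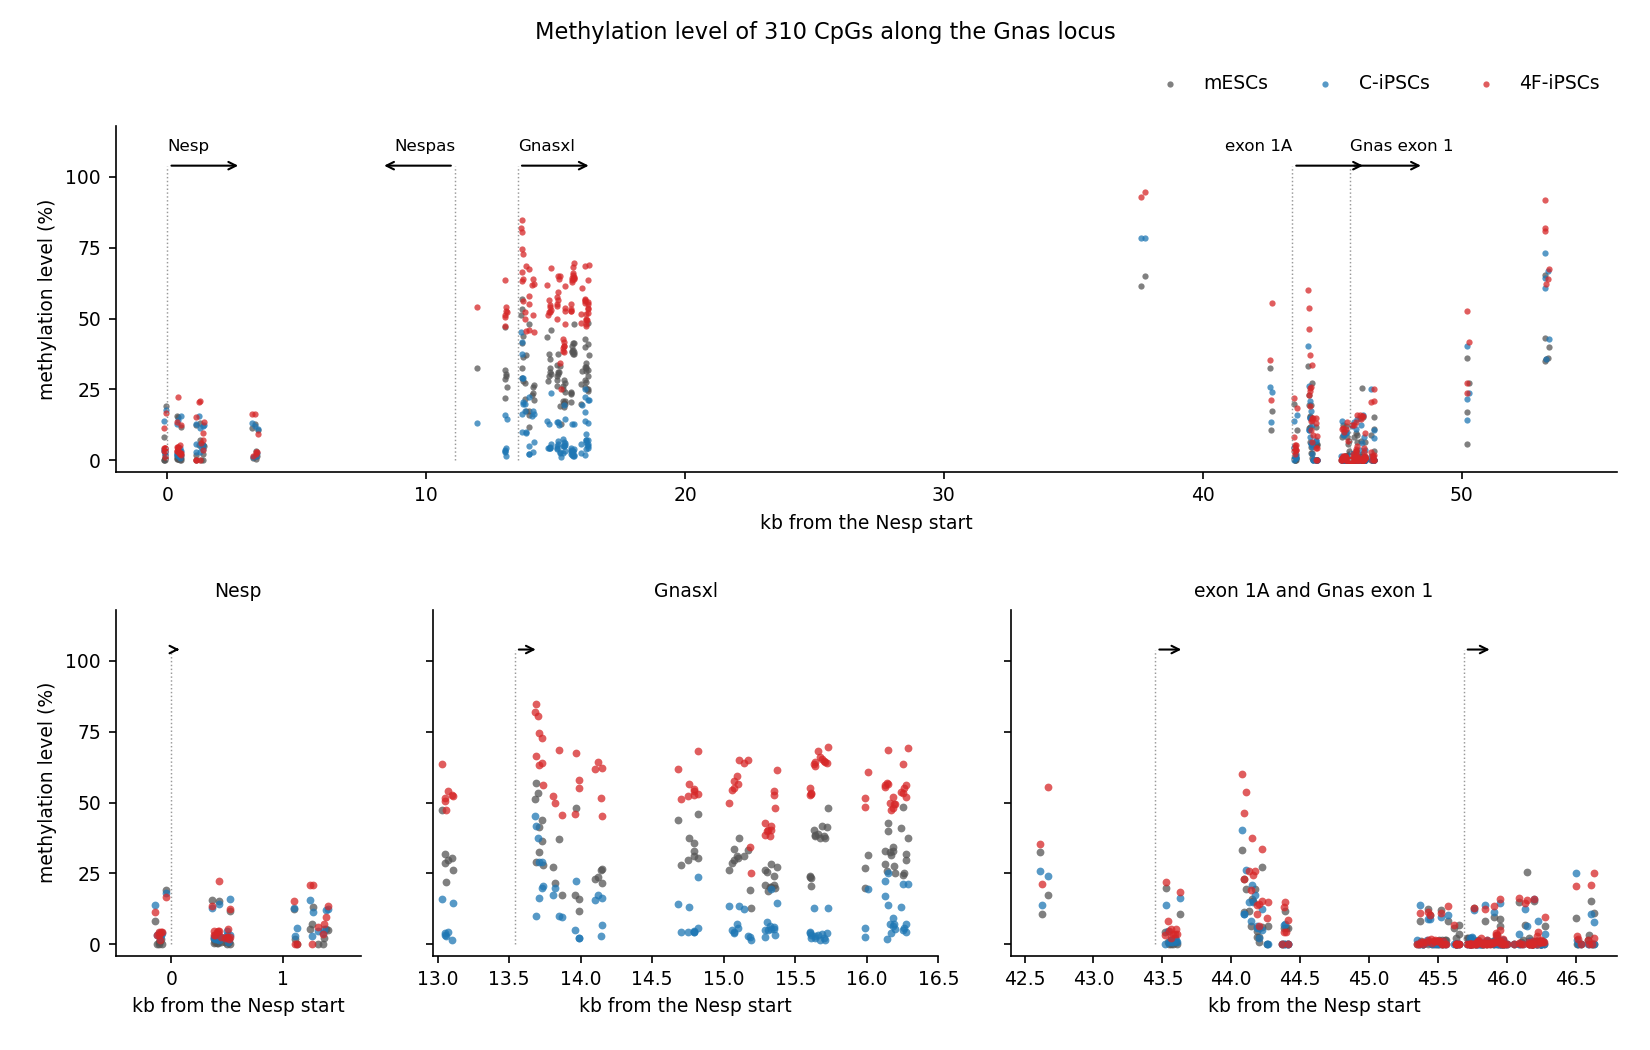
Methylation level (percent, vertical axis) of the 310 compared CpGs against distance in kb from the Nesp start, with 1 point per CpG and cell type, replicates summed. Arrows mark the 5 starts and their direction, and the lower panels enlarge 3 stretches. The cell types part widely around Gnasxl and lie close together, near 0, around Nesp and Gnas exon 1.

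A CpG was called strongly different when its levels differed by more than 33.3 percentage points and Fisher's exact test (two-sided, on reads summed over replicates) gave an unadjusted p under 0.05, the definition in the study's methods. This test does not use the spread between replicates. C-iPSCs were strongly lower than mESCs at 9 of the 310 CpGs (2.90%), against 0.0374% of the 1106981 CpGs of the genome. They were strongly higher at 1 CpG (0.323%), against 2.90% of the genome. The locus thus held 2.17% of the genome's 414 CpGs that were strongly lower in C-iPSCs. All 9 lie in 1 MspI fragment, the distal Gnasxl fragment printed above, so they are not 9 separate observations of the locus. The 4F-iPSCs were strongly higher than mESCs at 11 CpGs (3.55%), against 14.3% of the genome, and strongly lower at 0, against 0.0333%. Strong rises in 4F-iPSCs were thus a smaller share of the locus than of the genome. In the contrast that the locus was selected on, C-iPSCs were strongly exceeded by 4F-iPSCs at 90 CpGs (29.0%), against 1.35% of the genome, and the reverse was found at 0, against 0.0285%, and nothing is read from these shares. The comparisons with mESCs share the mESC libraries, and each shares its iPSC libraries with the contrast that chose the locus.

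A quasi-binomial model that uses the spread between libraries (limma shrinkage, Benjamini-Hochberg adjustment over all CpGs tested) called the same 2 comparisons with mESCs, again only where the difference passed 33.3 percentage points. C-iPSCs were lower at 9 locus CpGs, against 0.0114% of the genome, and higher at 0, against 1.49%. The 4F-iPSCs were higher at 9 locus CpGs, against 13.2% of the genome, and lower at 0, against 0.0250%. At an unadjusted p of this model under 0.05 and the same difference, C-iPSCs were higher at 1 CpG and 4F-iPSCs were lower at 0. The counts by Fisher's exact test moved with single libraries. Without mESC replicate 1 the C-iPSCs were lower at 18 CpGs, and without mESC replicate 2 at 3. The 4F-iPSCs were higher than mESCs at 17 and 24 CpGs without these libraries, and at 23 without 4F-iPSC replicate 1.

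The Nesp region was low in all libraries. Nesp encodes a chromogranin-like secretory protein and is expressed from the maternal allele. Its 35 CpGs had levels of 7.37% and 4.35% in C-iPSC replicates 1 and 2, 4.10% and 3.74% in mESC replicates 1 and 2, and 5.88% and 7.57% in 4F-iPSC replicates 1 and 2. The iPSC types overlapped, and C-iPSC replicate 2 lay just above the nearest mESC library. The means were 5.86% ± 2.14 (SD, n = 2) in C-iPSCs, 3.92% ± 0.251 (SD, n = 2) in mESCs and 6.72% ± 1.19 (SD, n = 2) in 4F-iPSCs. The difference of C-iPSCs from mESCs, 1.94 percentage points, was smaller than the larger SD, and that of 4F-iPSCs, 2.81 percentage points, was larger (p = 0.33 for each in the exact permutation test). The former was 0.197 without C-iPSC replicate 1 and 3.45 without C-iPSC replicate 2, and the latter was 1.71 on the minus strand. No CpG of the region was strongly different in any comparison by Fisher's exact test. Not a single CpG exceeded 17.9% in C-iPSCs, 19.1% in mESCs or 22.2% in 4F-iPSCs. The most-read CpG, 174284749, in the coding sequence 429 bp from the start, had a level of 1.60% in C-iPSCs (95% Wilson interval 0.684% to 3.68%, 313 reads), 2.48% in mESCs (1.14% to 5.30%, 242 reads) and 4.68% in 4F-iPSCs (2.81% to 7.70%, 299 reads). Neither iPSC type differed from mESCs detectably at this depth (p = 0.545 for C-iPSCs and p = 0.252 for 4F-iPSCs, Fisher's exact test). Without any threshold, 29 of the 35 CpGs were higher in C-iPSCs than in mESCs and 6, this most-read CpG among them, were lower. In 4F-iPSCs 30 were higher than in mESCs and 4 were lower. Intervals cover counting error only, because amplified reads that carry no molecular identifier may be copies of the same molecule.

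Between Nesp and Nespas, 7 CpGs in an intron (174287606 to 174287815) were also low, with means of 6.16% in C-iPSCs, 5.84% in mESCs and 7.39% in 4F-iPSCs. Of the 5 CpGs with a read that were given to Nespas, a single one was compared, 174296273, which lies 837 bp upstream of the antisense start, and 7 other compared CpGs within 2 kb of that start lie nearer to Gnasxl. Its level was 9.09% and 17.0% in C-iPSC replicates 1 and 2 (44 and 47 reads), 34.8% and 30.4% in mESC replicates 1 and 2 (23 reads each), and 46.9% and 58.8% in 4F-iPSC replicates 1 and 2 (32 and 51 reads). The cell types did not overlap, so the boundary between low and separated levels lay between the CpGs near Nesp and this one. Its summed level of 13.2% in C-iPSCs was below the 32.6% in mESCs (p = 0.0114, Fisher's exact test), and the 54.2% in 4F-iPSCs was above it (p = 0.0266, Fisher's exact test). Neither difference passed 33.3 percentage points, and neither held after adjustment in the quasi-binomial model (adjusted p = 0.503 for C-iPSCs and 0.253 for 4F-iPSCs). The CpG lies in an MspI site, a class of CpG with higher readings that is described further on.

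Gnasxl, which encodes the extra-large form of the G protein alpha subunit and is expressed from the paternal allele, carried the widest separation of 4F-iPSCs from mESCs among the 5 starts. Its 60 CpGs had levels of 9.95% and 13.1% in C-iPSC replicates 1 and 2, 28.9% and 32.0% in mESC replicates 1 and 2, and 54.3% and 56.8% in 4F-iPSC replicates 1 and 2. The closest libraries of C-iPSCs and mESCs were 15.8 percentage points apart, and those of 4F-iPSCs and mESCs 22.3 percentage points. The means were 11.5% ± 2.21 (SD, n = 2) in C-iPSCs, 30.4% ± 2.19 (SD, n = 2) in mESCs and 55.5% ± 1.74 (SD, n = 2) in 4F-iPSCs. Relative to mESCs, C-iPSCs differed by -18.9 (-19.6 at the single Nespas CpG) and 4F-iPSCs by 25.1 percentage points, both many times the SD (p = 0.33 for each, the least the exact permutation test allows). The iPSC types, on whose difference the locus was selected, were 44.0 percentage points apart. All 60 CpGs had the order C-iPSCs, mESCs, 4F-iPSCs, and at 51 of them all 6 single libraries kept that order.

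Levels varied among the Gnasxl CpGs, from 1.32% to 45.4% in C-iPSCs, from 11.8% to 56.8% in mESCs and from 25.3% to 84.8% in 4F-iPSCs. In C-iPSCs 36 of the 60 were under 10%, and in 4F-iPSCs 54 lay between 30% and 70%. The most-read CpG, 174299105, in the coding sequence 1246 bp from the start, had a level of 3.97% and 5.37% in C-iPSC replicates 1 and 2 (151 and 149 reads), 34.7% and 37.0% in mESC replicates 1 and 2 (121 and 100 reads), and 92 of 184 and 116 of 196 methylated reads in 4F-iPSC replicates 1 and 2. Replicates thus differed less than the cell types. Summed, it had 4.67% in C-iPSCs (95% Wilson interval 2.80% to 7.68%), 35.7% in mESCs (29.7% to 42.3%) and 54.7% in 4F-iPSCs (49.7% to 59.7%). It was lower in C-iPSCs than in mESCs (p = 2.01e-20, Fisher's exact test) and higher in 4F-iPSCs (p = 7.05e-06, Fisher's exact test). Both differences were under 33.3 percentage points, as were most differences from mESCs here, so by the strong call Gnasxl held 7 CpGs higher in 4F-iPSCs and 0 lower in C-iPSCs.

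**Figure D2:**
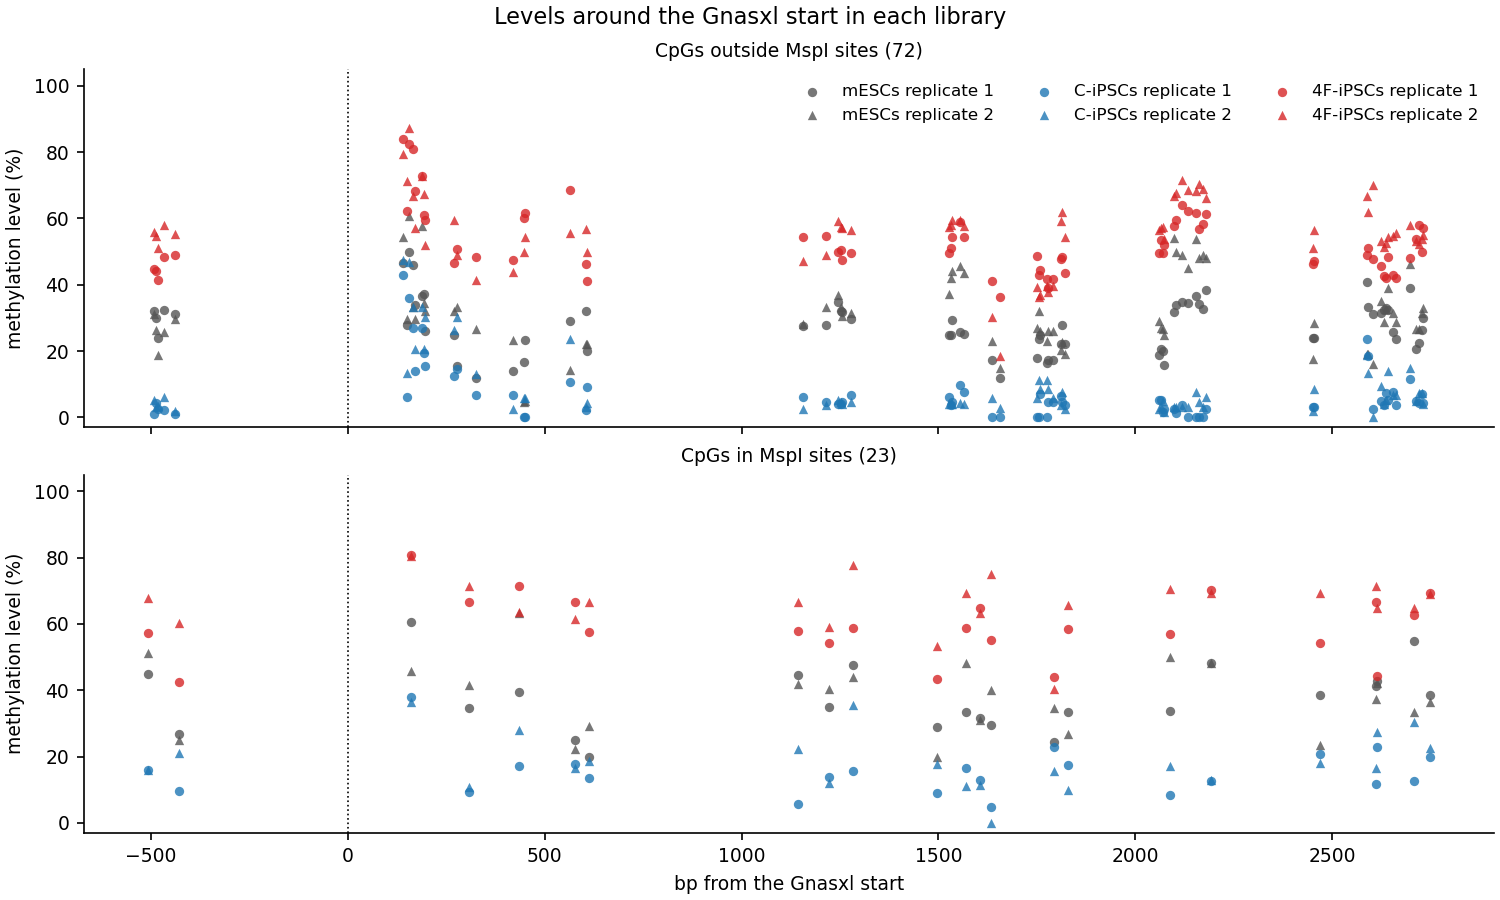
Methylation level (percent, vertical axis) of the CpGs around Gnasxl against distance in bp from its start (dotted line), with 1 point per CpG and library. The upper panel shows the 72 CpGs outside MspI sites and the lower panel the 23 CpGs in MspI sites. Circles are replicate 1 and triangles replicate 2. The colours of the cell types stay apart over most of the stretch.

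The separated stretch ran past the 2-kb window. From 174297352 to 174300606, a span of 3255 bp from the intron upstream of Gnasxl through its coding exons, 95 CpGs followed each other with gaps of at most 1 kb. Their level was 8.91% and 11.6% in C-iPSC replicates 1 and 2, 30.0% and 33.2% in mESC replicates 1 and 2, and 54.1% and 58.5% in 4F-iPSC replicates 1 and 2. The cell types did not overlap in these means of the whole span, though single libraries did at some of its CpGs. The span begins 507 bp upstream of the start. Runs of at least 3 strong CpGs at most 300 bp apart were found only here. All 9 CpGs strongly lower in C-iPSCs than in mESCs formed a single run in coding sequence, from 174299957 to 174300051, in the distal fragment printed above. The mean of that run was 3.68% in C-iPSCs, 40.0% in mESCs and 65.5% in 4F-iPSCs. The run higher in 4F-iPSCs than in mESCs lay nearer the start, from 174298010 to 174298473, with 6 strong CpGs of 21 compared and means of 16.7% in C-iPSCs, 30.4% in mESCs and 61.5% in 4F-iPSCs. In the contrast that chose the locus, 3 runs with 4F-iPSCs above C-iPSCs held 7 of 7, 21 of 22 and 60 of 66 compared CpGs.

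Closest downstream of the Gnasxl start the mean levels of both iPSC types and of mESCs were the highest of the stretch, a pattern picked out after the values were seen. The 9 CpGs from 140 to 197 bp downstream of the start had means of 25.1% and 31.4% in C-iPSC replicates 1 and 2, 40.5% and 42.0% in mESC replicates 1 and 2, and 72.5% and 70.5% in 4F-iPSC replicates 1 and 2. The order of the cell types was unchanged there. In mESC replicate 2 a run of 14 CpGs farther downstream, from 174299920 to 174300051, was higher, at 43.1%. The 11 CpGs from 1751 to 1830 bp downstream had 6.52% and 8.29% in C-iPSCs, 22.5% and 25.8% in mESCs, and 45.5% and 46.5% in 4F-iPSCs. Upstream of the start, 7 CpGs between -507 and -429 bp had 5.27% and 8.21% in C-iPSCs, 31.6% and 29.7% in mESCs, and 46.7% and 57.6% in 4F-iPSCs. Residual methylation in C-iPSCs was thus highest just downstream of the start. No other run of the 3-kb span had a mean over 14.2% in C-iPSCs, when CpGs at most 50 bp apart were joined into runs.

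Exon 1A, a noncoding first exon whose region is methylated on the maternal allele, showed less methylation than Gnasxl, with no separation of C-iPSCs from mESCs. Its 38 CpGs had levels of 6.99% and 9.61% in C-iPSC replicates 1 and 2, 8.14% and 8.78% in mESC replicates 1 and 2, and 16.8% and 18.4% in 4F-iPSC replicates 1 and 2. C-iPSCs overlapped with mESCs, and both 4F-iPSC libraries lay above all others. The means were 8.30% ± 1.85 (SD, n = 2) in C-iPSCs, 8.46% ± 0.451 (SD, n = 2) in mESCs and 17.6% ± 1.09 (SD, n = 2) in 4F-iPSCs. The difference of C-iPSCs from mESCs, -0.158 percentage points, was within the spread between replicates (p = 1, exact permutation test), and that of 4F-iPSCs, 9.16 percentage points, exceeded it (p = 0.33, exact permutation test). When CpGs with 5 summed reads were let in, the differences were -4.65 and 3.86 percentage points. Those let in include the neighbouring CpGs with very few mESC reads that are described under the other observations. The strong call was met by 2 CpGs higher in 4F-iPSCs than in mESCs.

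Within the exon 1A region the methylation was uneven. The 11 CpGs from 68 to 181 bp downstream of the start had means of 3.80% and 3.90% in C-iPSC replicates 1 and 2, 2.79% and 3.90% in mESC replicates 1 and 2, and 7.47% and 7.01% in 4F-iPSC replicates 1 and 2. They are the compared CpGs nearest to the start, and 2 of them are in MspI sites. The 17 CpGs from 629 to 819 bp downstream had 9.49% and 14.3% in C-iPSCs, 12.6% and 11.7% in mESCs, and 23.4% and 27.4% in 4F-iPSCs, with a highest single level of 60.2% in 4F-iPSCs, at a CpG in an MspI site. Upstream, the 3 CpGs between -837 and -780 bp had 15.7% and 26.1% in C-iPSCs, 21.5% and 19.4% in mESCs, and 36.6% and 38.4% in 4F-iPSCs, and 2 of the 3 are in MspI sites. The most-read CpG, 174326955, is the other of that group and is in the printed fragment. It had 13.7% in C-iPSCs (95% Wilson interval 10.3% to 18.0%, 307 reads), 10.7% in mESCs (6.89% to 16.3%, 168 reads) and 21.4% in 4F-iPSCs (17.0% to 26.5%, 281 reads). By replicate it had 11.1% and 16.2% in C-iPSCs, 9.46% and 11.7% in mESCs, and 40 of 154 and 20 of 127 methylated reads in 4F-iPSCs. On summed reads its level was higher in 4F-iPSCs than in mESCs (p = 0.00443, Fisher's exact test), though not after adjustment in the quasi-binomial model, and C-iPSCs were not detectably different from mESCs at this depth (p = 0.389, Fisher's exact test).

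Gnas exon 1 was nearly free of methylation in all cell types. Its 122 CpGs had levels of 1.48% and 2.52% in C-iPSC replicates 1 and 2, 2.26% and 2.05% in mESC replicates 1 and 2, and 1.74% and 3.89% in 4F-iPSC replicates 1 and 2. The libraries of all 3 cell types overlapped. The means were 2.00% ± 0.736 (SD, n = 2) in C-iPSCs, 2.15% ± 0.153 (SD, n = 2) in mESCs and 2.82% ± 1.53 (SD, n = 2) in 4F-iPSCs, and neither comparison with mESCs exceeded the spread (p = 1 for each, exact permutation test). At least 106 of the 122 CpGs were under 10% in each cell type, and none was strongly different in any comparison by Fisher's exact test. The most-read CpG, 174330178, in an annotated UTR 172 bp from the start, was methylated in 0% of 181 reads in mESCs (upper end of the 95% Wilson interval 2.08%), in 1.37% of 219 reads in C-iPSCs (0.467% to 3.95%) and in 0.394% of 254 reads in 4F-iPSCs (0.0695% to 2.20%). No difference was detectable there (p = 0.255 for C-iPSCs and p = 1.000 for 4F-iPSCs against mESCs, Fisher's exact test).

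**Figure D3:**
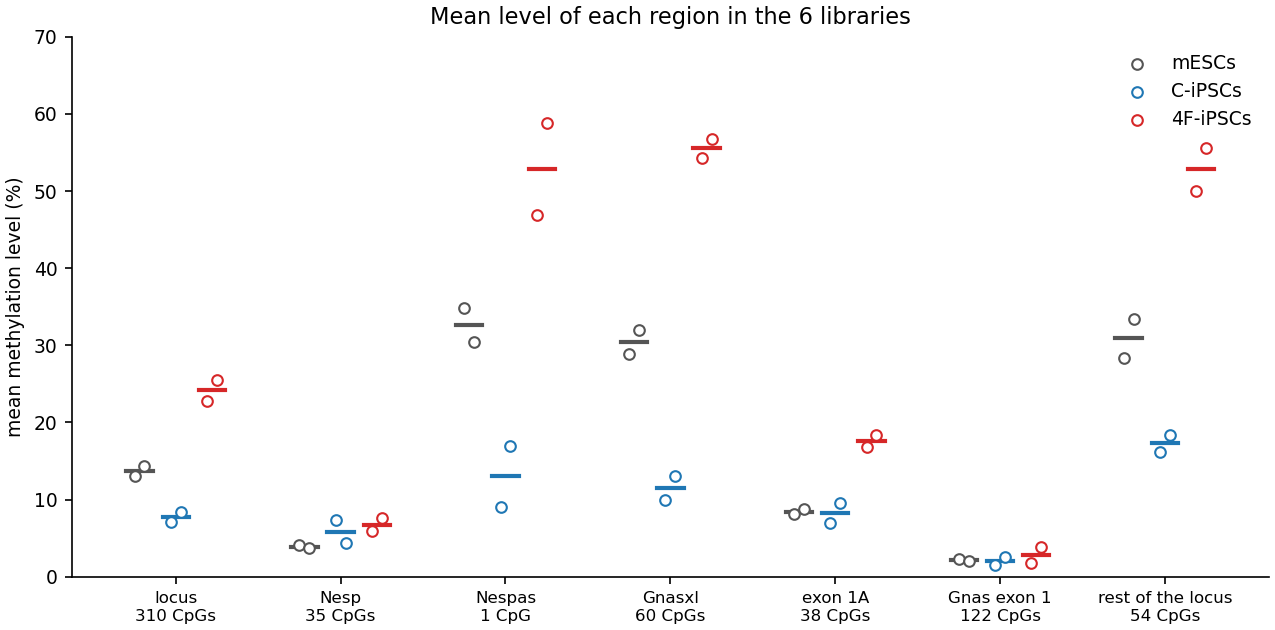
Mean methylation level (percent, vertical axis) of the whole locus, of the 5 starts and of the rest of the locus, with 1 circle per library and a bar at the mean of the 2 replicates. Circles of the 3 cell types are far apart at Gnasxl and at the single Nespas CpG, only 4F-iPSCs stand apart at exon 1A, and the circles nearly coincide at Nesp and Gnas exon 1.

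CpGs outside these windows behaved in more than 1 way. Those just past the Gnasxl window belong to the separated span described above. Downstream of that span, the compared CpGs outside the windows lay in Gnas introns and a UTR. In the means of each group there, the cell types had the order seen over the whole genome, with C-iPSCs above mESCs. A pair of CpGs at 174321920 and 174322076, in an intron between Gnasxl and exon 1A, both in MspI sites, had 77.0% and 80.9% in C-iPSC replicates 1 and 2, 57.2% and 73.9% in mESC replicates 1 and 2, and 94.7% and 92.9% in 4F-iPSC replicates 1 and 2. Both iPSC types were above both mESC libraries there. The 6 CpGs from 174337544 to 174337710, in an intron and a UTR and 2 of them in MspI sites, had 54.9% and 61.6% in C-iPSCs, 26.6% and 51.5% in mESCs, and 76.0% and 73.1% in 4F-iPSCs. Between them, 4 intronic CpGs from 174334518 to 174334592, of which 2 are in MspI sites, had 23.6% and 27.0% in C-iPSCs, 22.9% and 20.1% in mESCs, and 35.6% and 37.2% in 4F-iPSCs. In the means, C-iPSCs were thus below mESCs at Gnasxl and above them at these few distal CpGs, whereas 4F-iPSCs were above mESCs at both. The closest C-iPSC and mESC libraries lay near each other at the distal groups. They had 77.0% and 73.9% at the pair, 54.9% and 51.5% at the 6 CpGs, and 23.6% and 22.9% at the 4. At the 6 CpGs the SD of the mESC replicates was 17.6 percentage points. These distal differences were not tested as groups.

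Just inside the minimum of 10 summed reads were 4 CpGs with 14 or 15 reads in the least covered cell type, 1 of them, 174329945, at Gnas exon 1. The 3 in the exon 1A region had levels from 0% to 7.14% in C-iPSCs, from 5.56% to 11.8% in mESCs and up to 15.0% in 4F-iPSCs. Of the 3 just outside, with 9 or 7 reads in the least covered cell type, 2 lay near Nesp, with 7.14% and 3.57% in C-iPSCs, 11.1% each in mESCs, and 14.3% and 0% in 4F-iPSCs. The other, 174345374 in the rest of the locus, had 71.4% in C-iPSCs, 40.0% in mESCs and 100% in 4F-iPSCs.

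CpGs in MspI sites, where the enzyme cuts, gave higher levels than their neighbours, also where neighbours were unmethylated. In the Gnas exon 1 region the 19 CpGs in MspI sites had 7.90% and 13.3% in C-iPSC replicates 1 and 2, 11.1% and 9.91% in mESC replicates 1 and 2, and 8.84% and 20.2% in 4F-iPSC replicates 1 and 2. The 103 other CpGs had 0.298% and 0.538%, 0.636% and 0.596%, and 0.427% and 0.893% in the same libraries. Most of the methylation read at Gnas exon 1 was thus at MspI sites. Of 13145 promoters of the genome with at least 3 compared CpGs in MspI sites and 10 others, 99.3% had a higher mean at the MspI sites in all 6 libraries, a count added after seeing the data. In the 10461 of them whose other CpGs averaged under 2% in every library, a choice that itself favours a higher level at the MspI sites, these had 9.53% and 13.7% in C-iPSCs, 12.5% and 10.1% in mESCs and 10.1% in 4F-iPSC replicate 1, with 4F-iPSC replicate 2 the highest, as at Gnas exon 1. The part of this reading in the low levels of the locus was not tested. At Gnasxl the separation was as large without these sites, at -18.5 percentage points for C-iPSCs and 24.9 for 4F-iPSCs against mESCs over the 44 other CpGs, a split chosen after seeing the data. At exon 1A the 30 other CpGs had 4.69% and 5.31% in C-iPSCs, 3.99% and 5.44% in mESCs, and 13.4% and 12.9% in 4F-iPSCs.

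**Figure D4:**
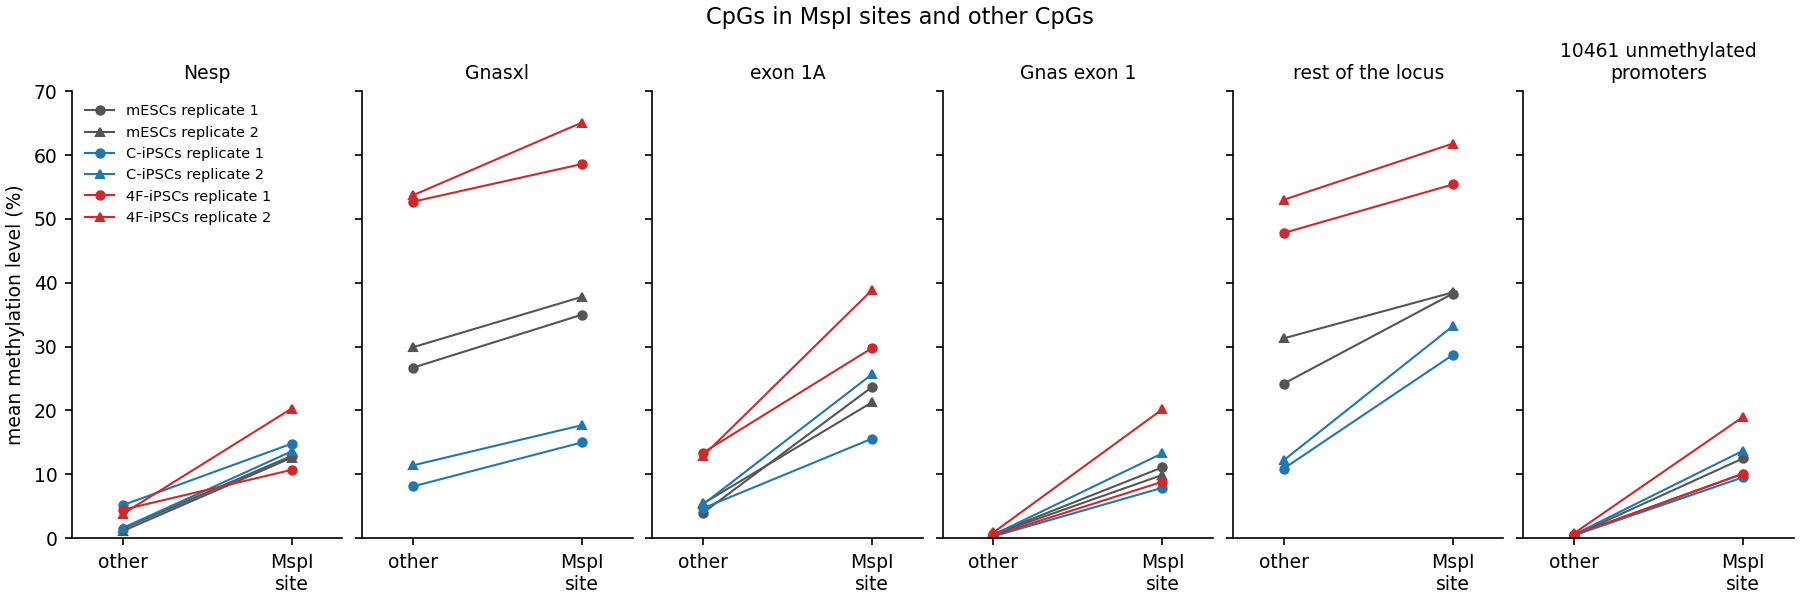
Mean methylation level (percent, vertical axis) of CpGs outside and inside MspI sites in 5 regions of the locus and in 10461 promoters whose other CpGs average under 2%, with 1 line per library. Lines climb from other CpGs to MspI-site CpGs in all panels, and the 3 cell types lie in separate bands at Gnasxl for both classes.

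The promoters of other imprinted genes gave a frame for Gnasxl. The list held 10 genes with maternal germline methylation, and all 10 had at least 5 compared CpGs within 1 kb of a start. Their median level was 5.82% in C-iPSCs, 28.2% in mESCs and 52.4% in 4F-iPSCs, against 3.16%, 3.04% and 4.01% over 17867 genes outside the locus. The 29 Gnasxl CpGs within 1 kb of the start had means of 15.7%, 31.4% and 59.9%, higher than all 10 genes in C-iPSCs, than 6 in mESCs and than 8 in 4F-iPSCs. The order C-iPSCs, mESCs, 4F-iPSCs was found for 9 of the 10 genes (90.0%), against 27.9% of all genes. The exception was Grb10, with 2.07% in C-iPSCs, 1.59% in mESCs and 2.80% in 4F-iPSCs. This order is of means, and at Kcnq1ot1 the 4F-iPSC and mESC libraries overlapped, with means 2.93 percentage points apart. H19, whose region carries paternal germline methylation, had the same order, with 24.0%, 58.0% and 66.3%. These genes were listed with earlier results of these data known, and no test was made over the list.

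**Figure D5:**
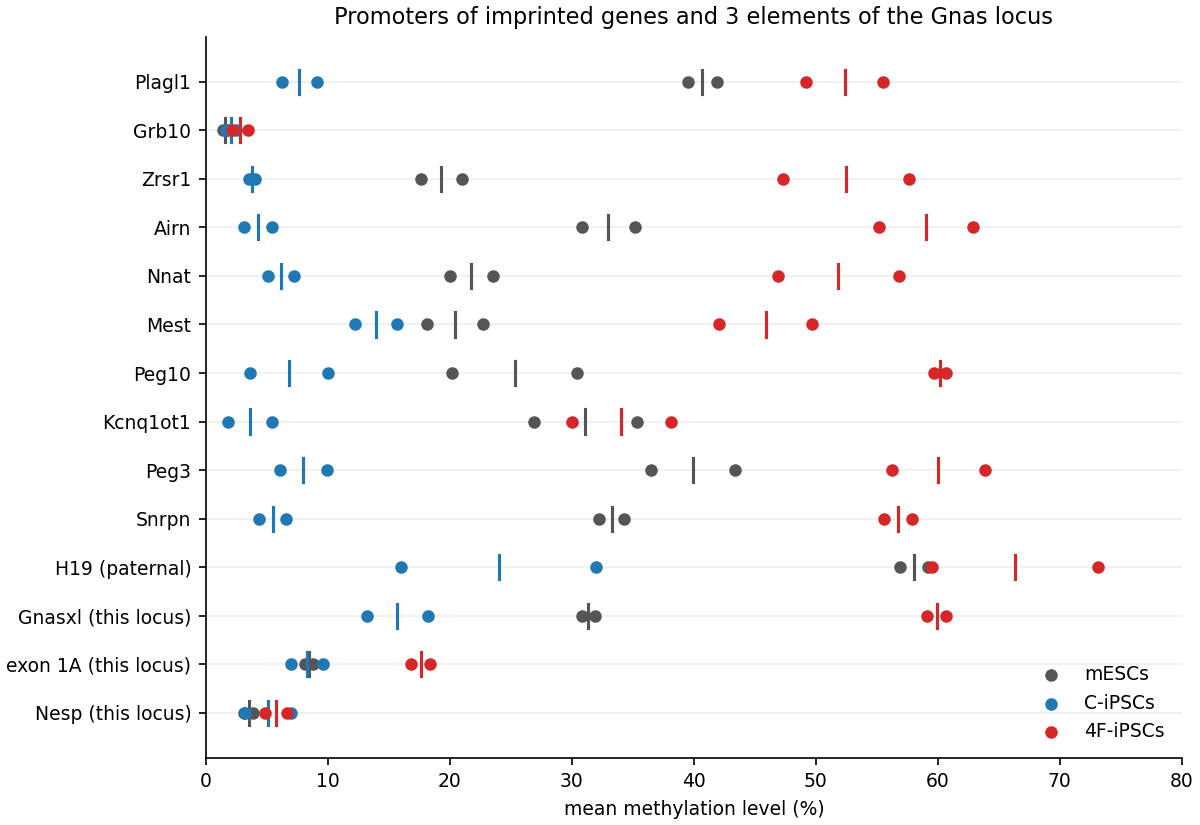
Mean methylation level (percent, horizontal axis) of the promoters of 10 imprinted genes with maternal germline methylation, of H19, and of the Gnasxl, exon 1A and Nesp starts, all within 1 kb, with 1 point per library and a tick at the mean of the 2 replicates. Gnasxl has the order of most of the maternal list, with C-iPSCs low, mESCs between and 4F-iPSCs high, while exon 1A and Nesp lie below 9 of the 10 in mESCs and in 4F-iPSCs.

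Among 14859 genes with at least 10 compared CpGs within 1 kb of a start, the 3 whose mean levels in the 6 libraries were nearest to those of the 2-kb Gnasxl window were Airn, Gm27596 and Peg10, with root mean square differences of 5.36, 5.58 and 5.95 percentage points. Airn, the antisense RNA of the Igf2r locus, had 4.28% in C-iPSCs, 33.0% in mESCs and 59.1% in 4F-iPSCs. The 3 genes nearest to the single Nespas CpG were Plagl1, Gm27741 and Gm27596, with differences of 6.06, 6.70 and 6.87 percentage points. In windows of 2 kb to each side of a start with at least 10 compared CpGs, 26786 in all, the C-iPSC minus mESC difference was as low as that of the Gnasxl window in 14 windows of 9 genes outside the locus. These genes were Airn, Gm27539, Gm27596, Gm27741, Kcnq1ot1, Meg3, Nap1l5, Peg13 and Plagl1. Both differences from mESCs were as far in opposite directions in 1 window, that of Nap1l5, and this depends on the window. Within 1 kb, where Gnasxl was at -15.6 and 28.5 percentage points, Peg10 of the list above was farther in both, at -18.5 and 34.9.

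The letters TGCCGC, which the zinc finger protein ZFP57 binds when their CpG is methylated, were counted on both strands of the reference within 2 kb of each start. The Gnasxl window held 12 matches, the Nespas window 6, exon 1A and Gnas exon 1 4 each, and Nesp 2, with all 6 of Nespas among those of Gnasxl and 2 shared by exon 1A and Gnas exon 1. At least 1 match was found in 41.4% of the 77161 start windows of the genome. As many as 12 were found in 0.00778% of them, in windows of Cpeb2, Gm11595, Gnas, Krtap4-16 and Mest, as many as 6 in 0.622%, 4 in 3.14% and 2 in 17.4%. A match describes the sequence and is not a binding site. Of the compared CpGs of the locus, 6 lie inside a match. The 3 in the Gnasxl region, of which 2 are in the TGCCGC fragment printed above, had a mean of 5.69% and 4.68% in C-iPSC replicates 1 and 2, 24.0% and 37.8% in mESC replicates 1 and 2, and 50.2% and 52.3% in 4F-iPSC replicates 1 and 2. The 57 Gnasxl CpGs outside a match had 10.2% and 13.5% in C-iPSCs, 29.2% and 31.7% in mESCs, and 54.5% and 57.0% in 4F-iPSCs. All 60 Gnasxl CpGs share the order of cell types, so this split could not differ in it. Of the other CpGs inside a match, 1 in exon 1A had 0.699% in C-iPSCs, 0% in mESCs and 5.29% in 4F-iPSCs, and 2 in Gnas exon 1 had means of 0.284%, 0.391% and 0.272%.

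For the labelled pluripotent state, 2 of the 5 pluripotency genes listed had enough CpGs. The Pou5f1 promoter had 6.26% and 7.65% in C-iPSC replicates 1 and 2, 8.07% and 15.6% in mESC replicates 1 and 2, and 12.8% and 20.8% in 4F-iPSC replicates 1 and 2, and the Zfp42 promoter had 6.92% and 5.95%, 4.13% and 6.33%, and 7.79% and 15.7%. Both were highest in 4F-iPSC replicate 2. Of the 5 fibroblast genes, listed for cells of the feeder layer or the starting culture, only Twist2 could be read, at 8.46% in C-iPSCs, 6.03% in mESCs and 10.7% in 4F-iPSCs. The share of such cells in the libraries, and its part in the levels of the locus, was not tested.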

How the data were processed

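RRBS counts of 6 libraries were used. Alignment and methylation calling are the authors' own: read pairs were mapped to mm10 (BSMAP 2.90 in the submitters' processing notes), and pairs with a unique position were passed to MOABS. The deposited files give 1 count of reads and 1 count of methylated reads for every CpG and library, in total and by strand, with no minimum. Their deposited fraction column served as a check of these counts. Groups came from the labels.

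Levels, calls and figures were made with Python 3.11.15 (NumPy 2.4.6, pandas 2.3.3, SciPy 1.17.1, numba 0.67.0, matplotlib 3.10.9). The quasi-binomial model was fitted in R 4.3.3 with limma 3.58.1 over CpGs with reads in the 4 libraries compared. Its prior came from CpGs whose level was 0.1 to 0.9 in each of the cell types compared, and its dispersion was at least 1. Region levels were compared by exact permutation over libraries, two-sided, and single CpGs by Fisher's exact test after summing replicates. Steps were tested on simulated data. Starts and UTRs came from GENCODE basic and RefSeq for GRCm38.

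The named-genes rule took the 5 starts, the most-read CpG of each, and the 3 genes outside the locus nearest in level to each start whose cell types differ by more than 20 percentage points. The runs described at Gnasxl and exon 1A and the printed fragments were chosen after values were seen. The members and lists were chosen with earlier results of these data known. Alternatives covered the minimum of reads, the weighting, the window, the strand, the thresholds, the test, each library left out and the replicate block. Expression was not analysed here.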

Additional observations from a re-analysis of the deposited data

Results flagged for a closer look

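The iPSC types moved in opposite directions from mESCs in every library at 4 places. At Gnasxl the C-iPSCs were at -18.9 and the 4F-iPSCs at 25.1 percentage points from mESCs, 44.0 apart. At the single Nespas CpG they were at -19.6 and 20.2, 39.8 apart. In the rest of the locus, most of whose CpGs lie just past the Gnasxl window, they were at -13.6 and 21.9, 35.5 apart, and over all 310 CpGs at -5.96 and 10.4, 16.4 apart. These differences in level between iPSC types were not tested, since the locus was selected on them. The strong CpGs of that contrast, called with Fisher's exact test, are a description for the same reason. At Nesp, exon 1A and Gnas exon 1 the iPSC types did not part in this way.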

How the results depend on the processing

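The differences of both iPSC types from mESCs over the whole locus, at Nespas and at Gnasxl kept their direction under the alternatives tried, those with a library left out included. Over the 18 level differences, 17 values under other settings had the opposite direction, all of differences near 0, and some settings could not move a value, such as the window size for the whole locus or the minimum of reads at the single Nespas CpG. For exon 1A, C-iPSCs minus mESCs, reported as -0.158 percentage points, these were 0.225 at a minimum of 20 summed reads, 0.314 at 10 reads in each library, 1.11 when all reads were pooled, 0.0554 on the plus strand, 1.97 on the minus strand, and, in an alternative chosen after seeing the data, 0.285 without CpGs in MspI sites. It was -4.65 at a minimum of 5 summed reads, and with single libraries left out it ran from -1.47 to 2.20. For Gnas exon 1, C-iPSCs minus mESCs was 0.0171 at 10 reads in each library and 0.186 on the plus strand, and from -0.637 to 0.412 with a library left out. The Gnas exon 1 difference of 4F-iPSCs from mESCs was -0.0531 on the minus strand and from -0.380 to 1.68 with a library left out, and from C-iPSCs from -0.267 to 1.79. For Nesp, C-iPSCs minus mESCs ran from 0.197 to 3.45 with a library left out, and 4F-iPSCs minus C-iPSCs was -0.831 on the minus strand and from -0.645 to 2.60 with a library left out. The 4F-iPSC minus C-iPSC difference was 19.9 over the locus with all reads pooled and 46.7 at Gnasxl on the plus strand. The cause of these shifts was not tested.

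The number of strong CpGs depended on the difference required. C-iPSCs higher than mESCs were 2 at more than 25 points and 0 at more than 50, and 0 by the quasi-binomial model. C-iPSCs lower were 32 and 0, 4F-iPSCs higher than mESCs 61 and 0, and 4F-iPSCs higher than C-iPSCs 28 at more than 50 points. At a minimum of 5 summed reads 4F-iPSCs were lower than mESCs at 4 CpGs, the exon 1A ones with few mESC reads that are described below. Without CpGs in MspI sites, an alternative chosen after seeing the data, 4F-iPSCs were higher than mESCs at 7. With a library left out, C-iPSCs were higher at 0 to 1 CpG and lower at 3 to 18, 4F-iPSCs higher than mESCs at 9 to 24, and higher than C-iPSCs at 80 to 96. With the replicate block (Cochran-Mantel-Haenszel test) the counts were those reported, and the differences between means cannot change with it. Correlations of the replicate deviations over CpGs were 0.0332 for C-iPSCs with mESCs, -0.162 for 4F-iPSCs with mESCs and 0.0817 for 4F-iPSCs with C-iPSCs, and over the locus 0.00941, -0.139 and 0.201. With the replicate numbers crossed, chosen after seeing the data, 4F-iPSCs were higher than mESCs at 11. With 2 libraries in each cell type the levels could not be tested below p = 0.33 in the exact permutation test, and CpGs not compared, 93.5% of those around Nespas among them, limit what the windows show.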

Other observations

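In the exon 1A region, 4 neighbouring CpGs from 174327955 to 174327987 fell outside the comparison with 5 summed reads each in mESCs, of which 40% were methylated. The same CpGs were covered in the iPSCs, with 146 to 148 reads in C-iPSCs and 262 to 266 reads in 4F-iPSCs, and had levels of 2.06% to 3.40% in C-iPSCs and of 2.26% to 4.58% in 4F-iPSCs. In mESC replicate 1 they had 2 reads each, all methylated, and in replicate 2 they had 3 reads each. These CpGs enter the exon 1A levels at a minimum of 5 summed reads, where both mESC libraries count equally despite so few reads.

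Among the mESC libraries, replicate 2 was above replicate 1 at the distal Gnasxl fragment, with 49.6% against 34.6%. It was also above replicate 1 at the 6 CpGs from 174337544 to 174337710, in an intron and a UTR, with 51.5% against 26.6%. The 17.6-point SD of these 6 CpGs is the widest between replicates among the 8 blocks of CpGs joined over gaps of at most 1 kb.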
